A study of Mus musculus with 11 samples.

Results

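A set of 10 genes that feed back on MAP kinase signalling was followed through Mamld1 knockdown in mouse Leydig tumor cells. They are the dual-specificity phosphatase genes Dusp1, Dusp2, Dusp4, Dusp5, Dusp6 and Dusp10, the Sprouty genes Spry1, Spry2 and Spry4, and the Sprouty-related gene Spred1. All probes of these 10 genes were taken, whatever their values, although the genes were chosen with earlier results of these data known. The arrays carried 11 probes for 9 of the genes, among 41174 probes in all (24375 of them named, for 17016 genes), and no probe could be matched to Dusp5. For 7 genes, 8 of the 11 probes were tested, among 24250 probes that the scanner software placed well above background on all arrays of 1 or more groups. The probe of Dusp2 and both probes of Spry4 were too dim for that.

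MLTC-1 cells (MLTCs) are a cultured line of Leydig cells, the testicular cells that make testosterone, taken from a mouse tumor. Of 11 arrays, 4 measured RNA of MLTCs transfected with non-targeting control RNA (4611G), 4 that of siRNA1-transfected MLTCs and 3 that of siRNA2-transfected MLTCs, where siRNA1 and siRNA2 are short RNA duplexes against Mamld1. Every group was grown in RPMI medium with fetal bovine serum, received its RNA at 20 nM with Lipofectamine RNAiMAX, and gave total RNA 48 h later. The published methods add human chorionic gonadotropin (hCG) before steroids are measured, and state that the microarray RNA came from cells harvested at that point. The labels name no hCG, so its use in these samples rests on the methods alone. All groups are 1 cell line after transient transfection, and the labels call the arrays replicates without saying that they came from separate cultures, so the p-values measure the spread between these arrays, which may be technical. Arrays are named by group and replicate number, so that control 3 is the control array of replicate 3.

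In the MAP kinase cascades, a kinase relay that runs from Ras through Raf, MEK and ERK carries signals from receptors to the nucleus, and parallel relays end in p38, JNK and ERK5. Dusp phosphatases remove the activating phosphates from the last kinase, while Sprouty and Spred proteins act higher up, between the receptor and Raf. Many of these genes are themselves switched on by the cascade, so they act as negative feedback, and in Leydig cells luteinizing hormone and hCG are known to activate ERK as well as cAMP signalling.

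The 75th percentile of the signal, to which each array was scaled, was 469.7 to 582 on the control arrays, 601 to 774 with siRNA1 and 488 to 579 with siRNA2, so that all siRNA1 arrays were brighter than all others, and its part in the results was not tested. No spot was saturated, and log2 signals of any 2 arrays correlated at 0.981 to 0.996 across tested probes. Mamld1 fell with either siRNA, from 101% ± 17.1 (SD, n = 4) to 54.0% ± 15.4 (SD, n = 4) with siRNA1 (log2 difference -0.93, limma adjusted p = 0.00571) and to 59.8% ± 12.6 (SD, n = 3) with siRNA2 (difference -0.77, limma adjusted p = 0.0309) of the control geometric mean, although the siRNA2 call was lost without control 3, control 4, siRNA2 1 or siRNA2 3 (largest adjusted p = 0.117), without a filter on dim probes (0.0762) and by normexp with extreme local backgrounds replaced (-0.19, 0.257). The Mamld1 probe was dim, with signals of 14.3 to 38.1. All 7 Leydig cell markers (Star, Cyp11a1, Hsd3b1, Cyp17a1, Insl3, Lhcgr and Nr5a1) were well above background on all 11 arrays. Of 11 markers of other testis cells with a probe, Adgre1 and Sox9 were above background on no array, and Acta2, Amh, Cdh5 and Dhh on all arrays. The summed level of these 11 markers was 1726 to 2128% of the 75th percentile signal with control RNA, 1647 to 2104% with siRNA1 and 1826 to 2327% with siRNA2, against 45561 to 59911%, 41845 to 48547% and 51177 to 61958% for the Leydig markers. Most of the former sum came from a single Acta2 probe (mean signal 7426 with control RNA), followed by Dhh (1372). Among the single markers, Cdh5, an endothelial cadherin, rose on its 2 probes. Its log2 differences were 0.94 and 1.22 with siRNA1 and 0.84 and 0.84 with siRNA2. Dhh of Sertoli cells rose with siRNA2 (0.72). With siRNA1, 1 of 2 tested probes of Acta2, a smooth muscle actin, fell by 0.41. Each of these was called by limma. Ddx4 of germ cells was well above background on 4 of 4 control, 1 of 4 siRNA1 and 3 of 3 siRNA2 arrays. Its siRNA1 signals of 5.05 to 10.1 lay near background, and no fold is given. Lhcgr, the receptor for luteinizing hormone and hCG, fell by 0.63 with siRNA1 (limma adjusted p = 0.00285) and gave 0.16 with siRNA2 (0.471). Cyp17a1, an enzyme of androgen synthesis, fell by 0.92 with siRNA1 (limma adjusted p = 0.000216) and by 0.48 with siRNA2 (0.0237), and the other Leydig markers were not called with either siRNA (Insl3 gave 0.31 and 0.82, limma adjusted p = 0.412 and 0.0613). The part of these genes and of other cell types in the results below was not tested, and in such bulk RNA fewer cells of a type and less RNA per cell cannot be told apart.

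Dusp1, Dusp6 and Spred1 carry most of what follows, and the 250 bases before their transcription starts are shown so that the promoters of a gene that rose with both siRNAs, one that rose with siRNA2 and one that fell with both can be read side by side. Of the 10 genes, 8 had an entry among the RefSeq promoters used. The sequences are from RefSeq, build GRCm38.p6, are written 5′ to 3′ along the gene and end at the base before the start. Capitals mark the cAMP response element (CRE) TGACGTCA and its half-site TGACG, which also lies within the CRE.
Dusp1 (chr17:26508473-26508722, minus strand): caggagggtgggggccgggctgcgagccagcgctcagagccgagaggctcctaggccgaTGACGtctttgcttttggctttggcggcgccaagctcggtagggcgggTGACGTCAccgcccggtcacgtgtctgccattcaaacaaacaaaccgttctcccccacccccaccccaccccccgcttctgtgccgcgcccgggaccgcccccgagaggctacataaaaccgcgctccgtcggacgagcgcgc
Dusp6 (chr10:99262981-99263230, plus strand): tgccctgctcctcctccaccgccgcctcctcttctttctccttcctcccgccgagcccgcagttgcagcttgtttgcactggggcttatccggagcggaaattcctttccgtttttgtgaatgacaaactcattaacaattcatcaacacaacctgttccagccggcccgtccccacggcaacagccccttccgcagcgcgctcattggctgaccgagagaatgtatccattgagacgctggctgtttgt
Spred1 (chr2:117120821-117121070, plus strand): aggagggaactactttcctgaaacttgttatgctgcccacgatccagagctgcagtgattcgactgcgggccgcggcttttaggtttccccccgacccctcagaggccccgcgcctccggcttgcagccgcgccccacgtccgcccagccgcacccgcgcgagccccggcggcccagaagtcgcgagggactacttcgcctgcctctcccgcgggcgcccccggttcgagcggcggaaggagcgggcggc
The CRE is the site to which CREB-family factors bind. It stood in the Dusp1 window at bases 143 to 136 before the start, and a further half-site stood at bases 191 to 187. Among 32851 RefSeq promoter windows of the same length, 1.55% held the CRE and 17.8% the half-site, on either strand. The windows of Dusp6 and Spred1 held neither, nor the AP-1 site TGANTCA (6.75% of windows), the ETS-type site CCGGAA (12.0%), the RBPJ site TGGGAA (21.6%) or the CArG box (1.47%), each searched on both strands. The shorter ETS letters GGAA, which both windows hold, were not searched. The 3 windows were picked by the changes of their genes. Among the windows not shown, those of Dusp10, Spry1 and Spry2, which gave no call, also held none of these sites. The Dusp2 window held 1 RBPJ site, and the Dusp5 window 1 CRE half-site and 2 CArG boxes. These matches are a description of letters, binding was not measured, and a link between sites and changes was not tested.

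The first comparison asked how the feedback genes stood in siRNA1-transfected MLTCs. Dusp1 rose and Dusp4 and Spred1 fell, while Dusp6, Dusp10, Spry1 and Spry2 did not pass the test. With a threshold of 0.05 on the limma adjusted p, 4 of the 8 tested probes were called, 1 higher and 3 lower, against a background of 27.0% of all tested probes (11.8% higher and 15.2% lower). The median log2 difference of the 8 probes was -0.13, beside -0.05 over all tested probes. In siRNA2-transfected MLTCs, which were compared with the same control arrays, Dusp1 and Dusp6 rose and Spred1 fell on 1 of its 2 probes. Here 3 of the 8 probes were called, 2 higher and 1 lower, against a background of 18.4% (7.70% higher and 10.7% lower), with a median log2 difference of -0.06 beside -0.01 over all tested probes. Between the siRNAs, 3 of the 8 probes were called (background 23.5%, with 11.7% higher and 11.8% lower in siRNA1), all lower with siRNA1 than with siRNA2, namely Dusp6 and both probes of Spred1. Dusp1 was higher with each siRNA, as were 4.08% of all tested probes, and the brighter Spred1 probe was lower with each, as were 4.22%. Where a change of at least 2-fold was asked for as well, both Spred1 probes were called with siRNA1 (2 of 8, background 2.99%), 0 of 8 with siRNA2 (2.25%) and 0 of 8 between the siRNAs (3.36%). With normexp correction on each spot's local background in place of the software's, 0 of 8 were called in any comparison and Spred1, Dusp4, Spry1, Spry2 and Mamld1 with either siRNA and Dusp6 with siRNA1 changed sign (Spred1 with siRNA1 to 0.24 and 0.51, Mamld1 to 0.65), whereas with the 0 to 16 extreme local backgrounds per array replaced, 4, 3 and 3 were called.

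**Figure D1:**
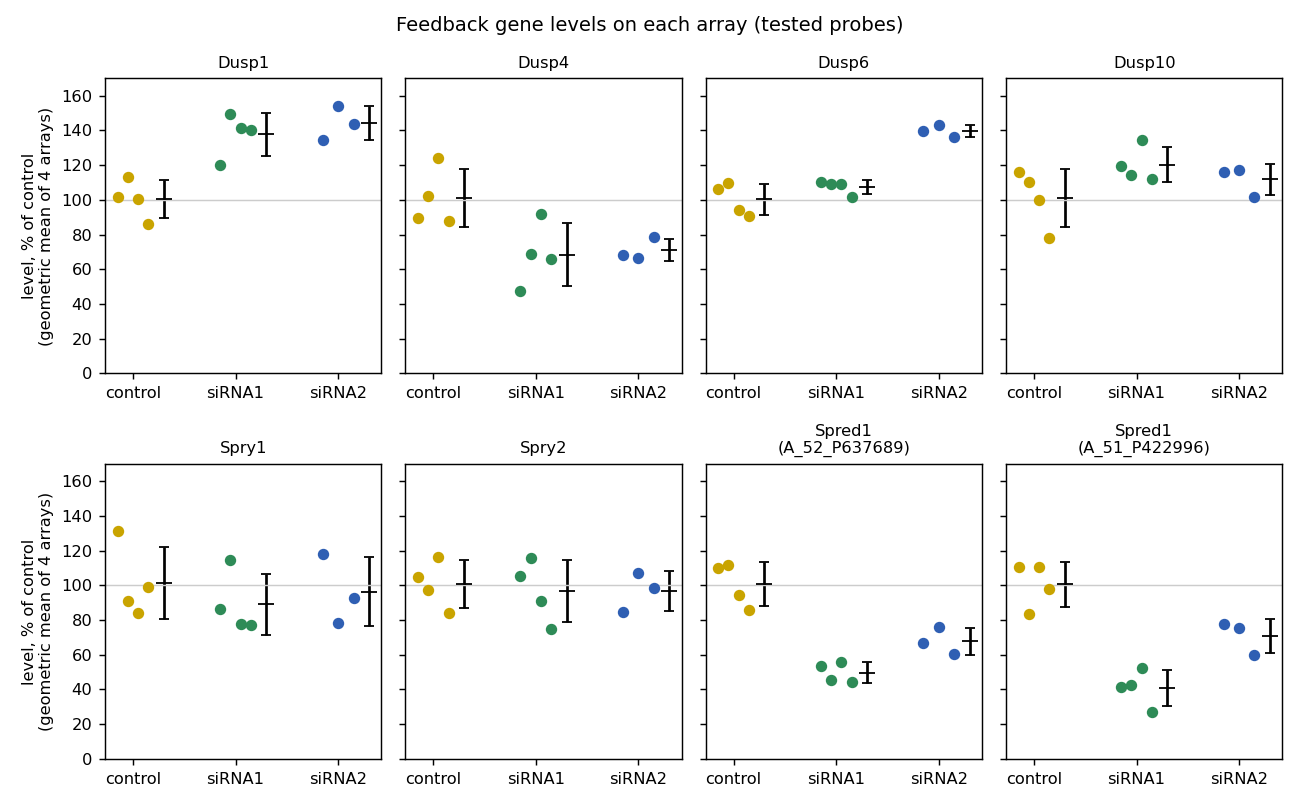
Level of each tested probe on each array (points), in percent of the control geometric mean (4 arrays), with the mean and SD of each group beside them (control in yellow, siRNA1 in green, siRNA2 in blue). The siRNA arrays of Dusp1 lie above the control arrays and those of both Spred1 probes below them, while Dusp6 is above the control arrays with siRNA2 and not with siRNA1.

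Among the phosphatases, Dusp1 was the one that rose with both siRNAs. It encodes an inducible nuclear phosphatase that acts on p38, JNK and ERK and that is known as a hormone- and cAMP-responsive gene in steroid-producing cells. Its level was 102%, 113%, 101% and 86.1% of the control geometric mean with control RNA, 120.1%, 149%, 141% and 140.4% with siRNA1, and 134%, 154% and 144% with siRNA2. All 7 siRNA arrays lay above the highest control array. The group means were 100.5% ± 11.1 (SD, n = 4), 138% ± 12.5 (SD, n = 4) and 144% ± 9.72 (SD, n = 3). The log2 difference was 0.46 ± 0.10 (SE) with siRNA1 (95% interval 0.23 to 0.69, limma adjusted p = 0.00711) and 0.53 ± 0.11 (SE) with siRNA2 (0.28 to 0.77, limma adjusted p = 0.00724). By exact permutation, two-sided here and throughout, p was 0.0286 for each, the smallest that 4 arrays against 4 or 3 allow. Between the siRNAs, the log2 difference was -0.07 (95% interval -0.31 to 0.18, limma adjusted p = 0.716). Both calls of Dusp1 held when any single array was left out.

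Dusp6, which encodes a cytoplasmic phosphatase selective for ERK, rose with siRNA2. Its level was 106%, 109.8%, 94.5% and 90.7% with control RNA, 110.2%, 109.5%, 109% and 102% with siRNA1, and 139.5%, 143% and 137% with siRNA2. Every siRNA2 array was above every other array, whereas the siRNA1 arrays overlapped with the control arrays. The means were 100.3% ± 9.14 (SD, n = 4), 108% ± 4.04 (SD, n = 4) and 139.8% ± 3.43 (SD, n = 3). With siRNA2 the log2 difference was 0.48 ± 0.09 (SE, 95% interval 0.29 to 0.68, limma adjusted p = 0.00294, exact permutation p = 0.0286). With siRNA1 it was 0.11 (95% interval -0.07 to 0.28, limma adjusted p = 0.374). The difference between the siRNAs was itself past the threshold at -0.38 ± 0.09 (SE, limma adjusted p = 0.00929, exact permutation p = 0.0286), and it was lost under quantile normalization (-0.32, limma adjusted p = 0.0640). Of all named genes outside the lists, those whose signal ran most like Dusp6 over the 11 arrays were Cnpy4 (Pearson r = 0.968), Tia1 (0.950) and Dennd10 (0.945), as a description over arrays that share groups and slides.

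Dusp4, an inducible nuclear phosphatase, was measured from a dim probe with signals of 36.4 to 90.0. Levels were 89.6%, 102%, 124% and 88.0% with control RNA, 47.3%, 68.7%, 91.9% and 65.9% with siRNA1, and 68.4%, 66.4% and 78.6% with siRNA2. All siRNA2 arrays and all siRNA1 arrays but siRNA1 3 were below the lowest control array. The log2 difference was -0.59 ± 0.18 (SE) with siRNA1 (limma adjusted p = 0.0349) and -0.49 ± 0.20 (SE) with siRNA2 (limma adjusted p = 0.112), with exact permutation p-values of 0.0857 and 0.0286. The siRNA1 call was lost without control 2 (-0.57, limma adjusted p = 0.0711), control 3 (-0.48, 0.0962), siRNA1 1 (-0.42, 0.0763), siRNA1 2 (-0.60, 0.0568) or siRNA1 4 (-0.58, 0.0668), and under median scaling (-0.54, 0.0602), quantile normalization (-0.54, 0.0563), no filter on dim probes (0.0740) or a fit of these 2 groups alone (0.0551). In a fit with the slide as a block, siRNA2 also passed (-0.54, limma adjusted p = 0.0497).

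Dusp10, whose product prefers p38 and JNK, did not pass with either siRNA. The 4 control arrays spanned 78.3 to 116%, the siRNA1 arrays 112 to 135% and the siRNA2 arrays 102 to 117%, so the groups overlapped. The log2 difference was 0.26 with siRNA1 (95% interval -0.01 to 0.53, limma adjusted p = 0.148) and 0.16 with siRNA2 (-0.14 to 0.45, limma adjusted p = 0.499), and with the slide as a block siRNA1 passed (0.28, limma adjusted p = 0.0456). Dusp2, an inducible nuclear ERK phosphatase best known from immune cells, exceeded background on 1 of 4 arrays with control RNA, 2 of 4 with siRNA1 and 0 of 3 with siRNA2. Its signals were 5.69, 4.63, 12.0 and 4.85 with control RNA, 6.56, 15.7, 14.5 and 5.48 with siRNA1, and 4.44, 4.39 and 3.14 with siRNA2, near the lowest signal called above background (6.94 to 8.90 per array), and no fold is given.

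**Figure D2:**
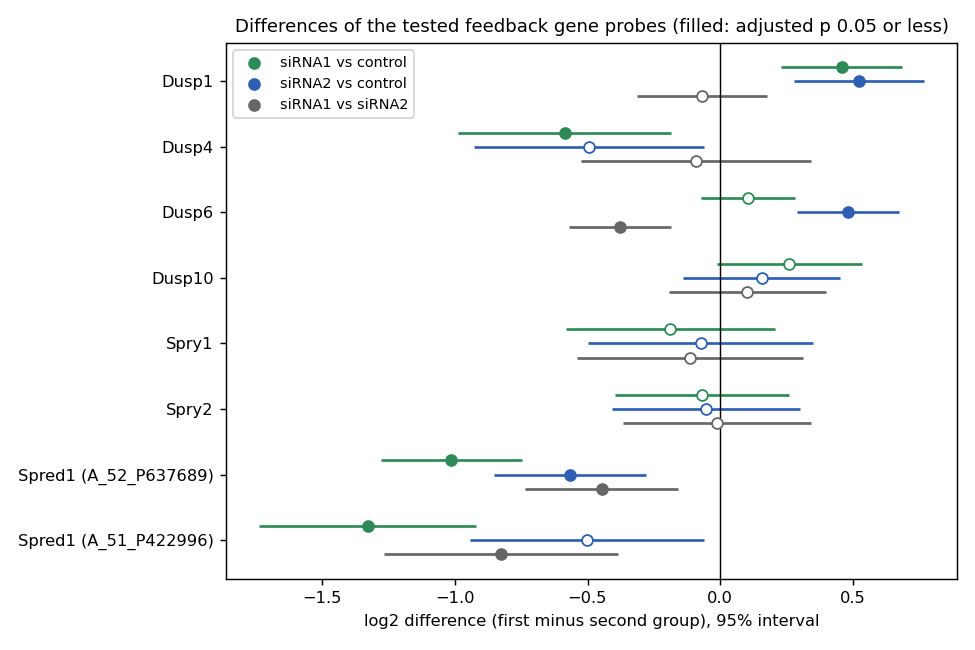
Log2 difference of each tested probe (first minus second group of the comparison) with its 95% interval from the limma fit. Filled points are probes called by limma, and the 2 comparisons with control share the 4 control arrays. Dusp1 is right of 0 and Spred1 left of 0 with either siRNA, and Spry1 and Spry2 have intervals that span 0.

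The tested Sprouty genes of the set, Spry1 and Spry2, gave no call. Sprouty proteins restrain signalling from receptor tyrosine kinases to Ras. Spry2 was measured well above background on all 11 arrays, at 105%, 97.4%, 117% and 83.9% on the control arrays, 105%, 116%, 91.1% and 74.8% with siRNA1, and 84.5%, 107% and 98.6% with siRNA2. The 3 groups overlapped. The log2 difference was -0.07 with siRNA1 (95% interval -0.39 to 0.26, limma adjusted p = 0.784) and -0.05 with siRNA2 (-0.41 to 0.30, limma adjusted p = 0.876), so log2 changes below -0.41 or above 0.30 lay outside both intervals. The named genes that ran most like Spry2 were Rdh9 (Pearson r = 0.938), Krtap6-1 (0.904) and Klhl1 (0.896), over the same 11 arrays. As with Dusp6, they are the top of a ranking of all named tested genes outside the lists. What such a ranking gives by chance was not tested. Spry1 lay closer to background, with signals of 13.1 to 21.1. It stood at 131%, 91.1%, 84.3% and 99.1% on the control arrays, 86.2%, 115%, 77.9% and 77.1% with siRNA1, and 118%, 78.5% and 92.8% with siRNA2, with overlapping groups. Its log2 differences were -0.19 (95% interval -0.58 to 0.21, limma adjusted p = 0.485) and -0.07 (-0.50 to 0.35, limma adjusted p = 0.861). The 2 probes of Spry4 were not tested. The signals of the brighter one were 7.39, 4.10, 6.23 and 7.46 with control RNA, 13.0, 7.08, 15.6 and 13.9 with siRNA1, and 9.62, 8.16 and 6.41 with siRNA2, so that siRNA1 2 lay among the control arrays. It exceeded background on 0 of 4 arrays with control RNA, 3 of 4 with siRNA1 and 1 of 3 with siRNA2. The arrays of either siRNA overlapped with the control arrays, and no fold is given. The other Spry4 probe was above background on 0 of 11 arrays, at signals of 1.76 to 2.26.

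Of the 7 tested genes of the set, Spred1 had the largest log2 differences with siRNA1. Its product, which is mutated in Legius syndrome, carries neurofibromin to the membrane and so restrains Ras and Raf. Both Spred1 probes were dim, with signals of 44.9 to 93.0 on the brighter and 14.8 to 57.5 on the other. On the brighter probe (A_52_P637689) levels were 110.1%, 112%, 94.5% and 85.8% with control RNA, 53.3%, 45.5%, 56.0% and 44.2% with siRNA1, and 66.5%, 76.1% and 60.7% with siRNA2. The 3 groups did not overlap, with control highest, siRNA2 between and siRNA1 lowest. The means were 101% ± 12.6 (SD, n = 4), 49.8% ± 5.80 (SD, n = 4) and 67.8% ± 7.79 (SD, n = 3). With siRNA1, the level fell by 1.01 on the log2 scale, or 2.02-fold (SE 0.12, limma adjusted p = 0.000136, exact permutation p = 0.0286). With siRNA2, it fell by 0.57 (SE 0.13, limma adjusted p = 0.0113, exact permutation p = 0.0286). Both of these calls held when any single array was left out.

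The dimmer Spred1 probe (A_51_P422996) stood at 111%, 83.4%, 111% and 97.8% with control RNA, 41.5%, 42.5%, 52.5% and 27.1% with siRNA1, and 78.0%, 75.2% and 59.8% with siRNA2. It kept the same order of groups without overlap. The level fell by 1.33 on the log2 scale with siRNA1, or 2.51-fold (SE 0.19, limma adjusted p = 0.000390, exact permutation p = 0.0286). The siRNA2 difference of -0.50 did not pass (SE 0.20, limma adjusted p = 0.113, exact permutation p = 0.0571), except without siRNA1 4 (-0.50, limma adjusted p = 0.0350) or when slides were a block (-0.49, 0.0479). The siRNAs differed on both probes, by -0.45 on the brighter (SE 0.13, limma adjusted p = 0.0290) and -0.83 on the dimmer (SE 0.20, limma adjusted p = 0.0118). On the brighter probe that difference was lost without siRNA1 2 (-0.41, limma adjusted p = 0.0666), siRNA1 4 (-0.39, 0.0686), siRNA2 1 (-0.46, 0.0589) or siRNA2 2 (-0.36, 0.124), and under median scaling (-0.41, 0.0624) or without a filter on dim probes (0.0690).

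The 11 arrays lay on 3 slides, each with all 3 groups, and the differences were also read within each slide. Dusp1 was higher than control on every slide, by 0.16, 0.53 and 0.71 on the log2 scale with siRNA1 and by 0.32, 0.61 and 0.74 with siRNA2. The brighter Spred1 probe was lower on every slide, by -1.06, -0.90 and -0.96 with siRNA1 and by -0.74, -0.31 and -0.50 with siRNA2, and so was the dimmer one. Dusp6 was higher on every slide with siRNA2 (0.37, 0.60 and 0.59) and, by less, with siRNA1 (0.03, 0.21 and 0.16). Dusp4 was lower on every slide with siRNA1 (-1.02, -0.64 and -0.42) and with siRNA2 (-0.48, -0.90 and -0.16), and Dusp10 was higher on every slide with either, by 0.04 to 0.52. In the fit with the slide as a block, log2 differences were 0.43 and 0.52 for Dusp1 (limma adjusted p = 0.0101 and 0.00748), 0.50 for Dusp6 with siRNA2 (0.00110), and -0.998 and -0.539 for the brighter Spred1 probe (0.000105 and 0.00462). The number of probes called with siRNA2 grew from 3 to 5 under this block, by Dusp4 and the dimmer Spred1 probe.

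**Figure D3:**
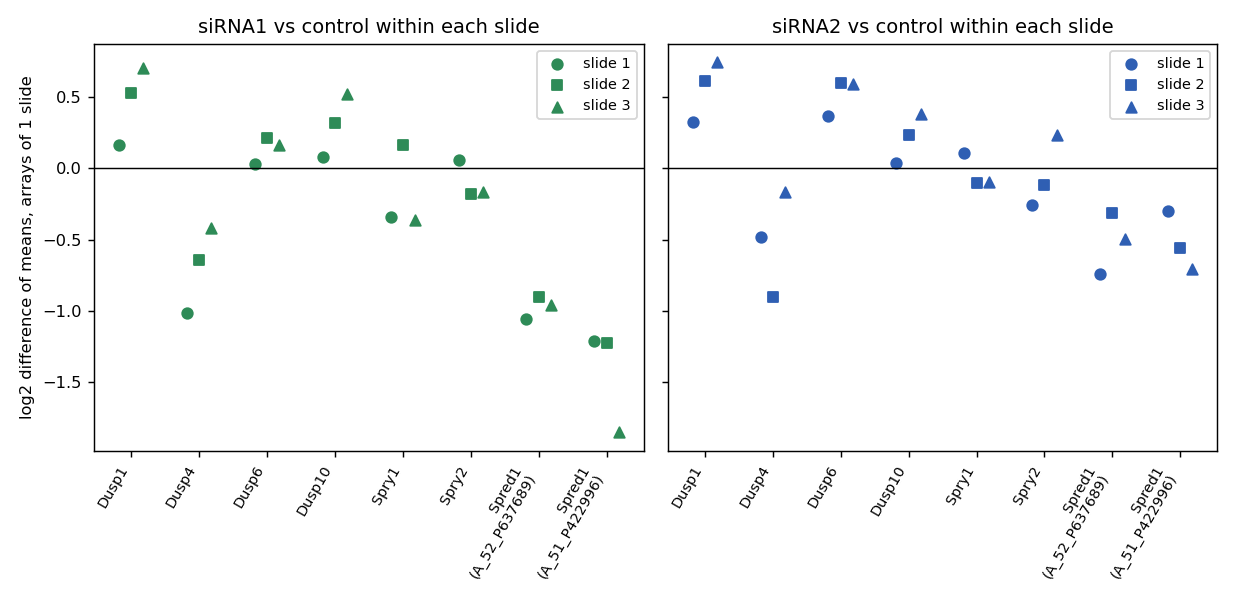
Log2 difference of the mean signals between siRNA and control arrays that lie on the same slide, for each tested probe (circle, square and triangle for slides 1, 2 and 3). The left panel has siRNA1 and the right panel siRNA2, each with 1 or 2 arrays per group on a slide, so there is no test. Dusp1 is above 0 and Spred1 below 0 on all 3 slides in both panels, and Spry2 crosses 0.

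The other genes of the pathway were taken as 4 lists of 68 genes, of which 58 genes were tested with 88 probes. With siRNA1, 30 of the 88 probes were called, 14 higher and 16 lower (34.1%, beside 27.0% of all tested probes), with a median log2 difference of 0.03. With siRNA2, 17 were called, 3 higher and 14 lower (19.3%, beside 18.4%), with a median of -0.04, and this count fell to 7 without siRNA2 2 and to 10 without siRNA2 3. Between the siRNAs, 14 were called, 10 higher and 4 lower with siRNA1 (15.9%, beside 23.5%), and 9 without siRNA2 3. In the same direction with both siRNAs, 11 of the 88 probes were called. Of these, 2 were higher (beside 990 of all 24250 tested probes, or 4.08%) and 9 lower (beside 1023, or 4.22%). The 9 lower include both probes of Etv5, which lay near background with siRNA2.

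**Figure D4:**
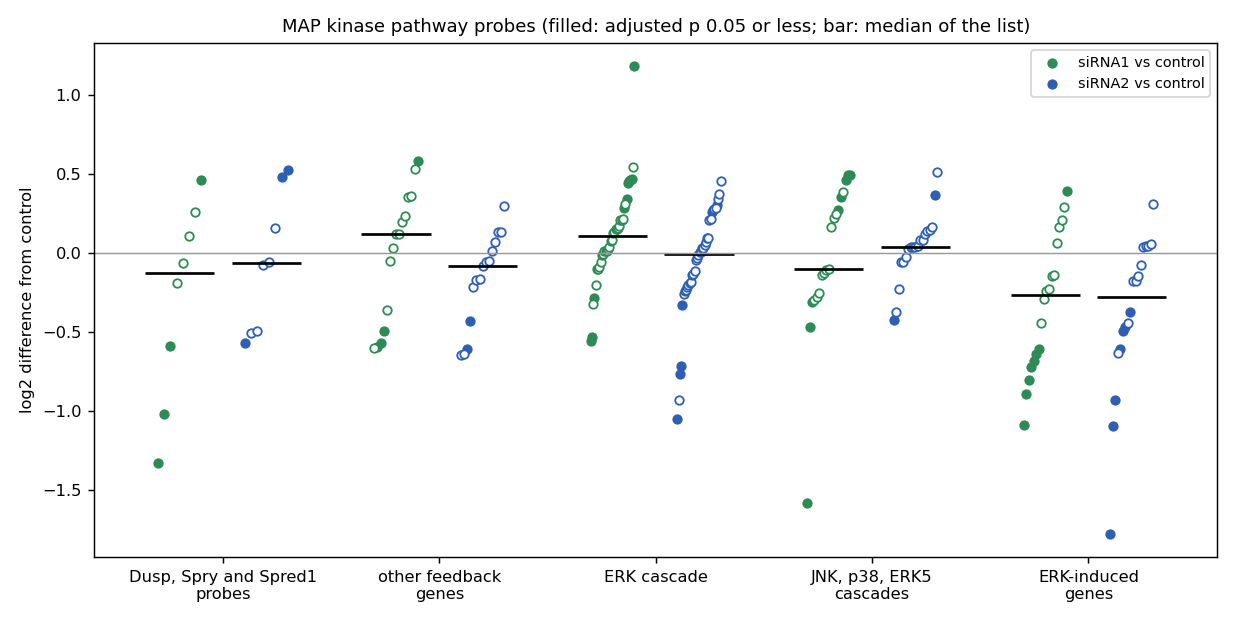
Log2 difference from control of each tested probe in the Dusp, Spry and Spred1 set and in the 4 pathway lists, for siRNA1 (green) and siRNA2 (blue). Filled points are probes called by limma, and the bar is the median of the list. The ERK-induced genes have medians of -0.27 and -0.28, and the other lists have medians between -0.13 and 0.12.

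The ERK-induced genes, which are transcribed when ERK is active, had 18 tested probes of 13 genes. With siRNA1, 7 probes were lower and 1 higher (44.4% called, beside 27.0% of all tested probes), with a median log2 difference of -0.27. With siRNA2, 7 were lower and 0 higher (38.9%, beside 18.4%), with a median of -0.28. Etv5, an ETS factor of the same induced set as Dusp6 and the Sprouty genes, fell on its brighter probe with siRNA1. Its level was 49.5% ± 17.4 (SD, n = 4), with a log2 difference of -1.09 (limma adjusted p = 0.00455). The other Etv5 probe gave -0.68 with siRNA1 (limma adjusted p = 0.0199). That call was lost without control 2 (-0.61, 0.0547), control 4 (-0.66, 0.0509) or siRNA1 4 (-0.56, 0.0524). With siRNA2, each probe was well above background on 1 of 3 arrays. Signals there were 8.15 to 10.5 on the brighter probe (23.0 to 33.7 with control RNA) and 7.07 to 13.2 on the other (17.1 to 19.2). Both probes count among the 7 lower with siRNA2, but they passed the filter through the control and siRNA1 arrays. As the siRNA2 signals lay near background, no fold is given. The siRNA2 call of the other probe was lost by normexp with extreme local backgrounds replaced (limma adjusted p = 0.0994). Egr1, an immediate early zinc finger factor, fell from 102% ± 21.6 (SD, n = 4) to 62.1% ± 14.5 (SD, n = 4) with siRNA1 (-0.72, limma adjusted p = 0.0168) and 52.7% ± 5.55 (SD, n = 3) with siRNA2 (difference -0.93, limma adjusted p = 0.00931), with siRNA1 arrays that overlapped the control arrays. Fosb, an AP-1 subunit, fell by 0.89 on the log2 scale with siRNA1 (limma adjusted p = 5.60e-05) and by 0.37 with siRNA2 (limma adjusted p = 0.0260), the latter lost without control 1, 3 or 4 or siRNA2 2 (adjusted p up to 0.124).

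Ier3, a small immediate early protein, fell by 0.61 with siRNA1 (limma adjusted p = 0.00153) and by 0.47 with siRNA2 (limma adjusted p = 0.0148), the latter lost without siRNA2 2 (-0.45, 0.0569). Fos gave -0.23 with siRNA1 (limma adjusted p = 0.162) and -0.49 with siRNA2 (limma adjusted p = 0.0165), the latter lost without siRNA2 2 (-0.48, 0.0578) or siRNA2 3 (-0.46, 0.0562). Etv4, an ETS factor akin to Etv5, gave -0.64 with siRNA1 (limma adjusted p = 0.0329), which was lost without control 1, 3 or 4 or siRNA1 1 or 4 (adjusted p up to 0.0844), and -0.44 with siRNA2 (limma adjusted p = 0.190). The 1 probe of the list that was higher with siRNA1 was that of Jun (0.39, limma adjusted p = 0.0157), named here after its value was seen.

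Of the other feedback genes, 1 of 15 probes was higher and 3 lower with siRNA1 (26.7% called, beside 27.0%), and 0 higher and 2 lower with siRNA2 (13.3%, beside 18.4%), so neither share exceeded that of all tested probes (medians 0.12 and -0.08). Spry3, the remaining Sprouty gene, was lower with both, by -0.49 with siRNA1 (limma adjusted p = 0.0156) and -0.61 with siRNA2 (limma adjusted p = 0.0113), the latter lost without siRNA2 2 (-0.54, 0.0550). The other calls of this list, named after their values were seen, were Dusp22, lower on both probes with siRNA1 (-0.57 and -0.59, limma adjusted p = 0.000966 and 0.00257) and on 1 probe with siRNA2 (-0.43, limma adjusted p = 0.0302), and Dusp9, higher on 1 of 2 probes with siRNA1 (0.58, limma adjusted p = 0.00313). The siRNA2 call of Dusp22 was lost without control 1, 2 or 3 or siRNA2 2 or 3 (adjusted p up to 0.120).

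In the ERK cascade upstream of the feedback genes, 7 of 36 probes were higher and 3 lower with siRNA1 (27.8% called, beside 27.0%), and 2 higher and 4 lower with siRNA2 (16.7%, beside 18.4%), shares near those of all tested probes (medians 0.11 and -0.0040). Named after its values were seen, Ptpn11, the phosphatase Shp2 that couples receptors to Ras, fell by 1.05 on the log2 scale with siRNA2 (limma adjusted p = 1.73e-05). It differed between the siRNAs by 0.84 (limma adjusted p = 5.10e-05), and both calls held with any array left out, while its other probe gave -0.93 with siRNA2 (limma adjusted p = 0.133) and passed with the slide as a block (-1.06, 0.0327). With siRNA1, Sos1, the exchange factor that loads Ras with GTP, rose by 1.18 on 1 probe (limma adjusted p = 0.000103), while its other probe gave 0.16 (limma adjusted p = 0.294).

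In the JNK, p38 and ERK5 cascades, 5 of 19 probes were higher and 3 lower with siRNA1 (42.1% called, beside 27.0%), and 1 higher and 1 lower with siRNA2 (10.5%, beside 18.4%), with medians of -0.10 and 0.04. Map3k7, which encodes the kinase TAK1 and was named after its value was seen, fell by 1.58 with siRNA1 (limma adjusted p = 3.95e-06) and gave 0.12 with siRNA2 (limma adjusted p = 0.569), a difference of -1.70 between the siRNAs (limma adjusted p = 4.25e-06). Map2k3, a kinase of p38, fell by 0.31 and 0.42 (limma adjusted p = 0.00634 and 0.00236). Map3k1, a kinase at the top of the JNK relay, rose by 0.49 and 0.37 (limma adjusted p = 0.00153 and 0.0168), the second lost without siRNA2 2 (0.37, 0.0591) or siRNA2 3 (0.30, 0.0708). What these kinase transcripts had to do with the feedback genes was not tested.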

How the data were processed

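One-color Agilent 4x44K arrays of Cy3-labeled RNA were deposited as scanner output. Per the file headers, the signal intensities deposited by the authors were subtracted for background within each array and not normalized between arrays. They came from Feature Extraction 9.5.1.1 (version 9.5 in the labels), with an array grid on mouse build mm8. The authors also deposited group averages and a list of their own comparisons, made in GeneSpring, which were not used here. From each log2 signal the array's 75th percentile of non-control spots was subtracted, outlier-marked spots (45 to 96 per array) were left out, and spots of 1 probe were averaged. Of 41174 probes, 24375 were named through RefSeq transcripts, and the 24250 well above background on all arrays of 1 or more groups were fitted with limma 3.58.1 in R 4.3.3 (lmFit, contrasts.fit and eBayes over all 11 arrays, Benjamini-Hochberg over 24250 probes, threshold 0.05). Levels are given in percent of the control arrays' geometric mean. The number of arrays limits precision. The fit was checked on simulated data with independent noise on each array, so that check did not cover slide or replicate effects.

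The genes followed, the lists, the tests and the alternatives were chosen with earlier results of these data known. Named besides the members are Egr1, Fos, Etv4, Etv5 and, where measured, Ccnd1 (no matching probe), the 8 list probes called with both siRNAs in 1 direction with the smallest larger adjusted p, and the 3 genes most correlated with Dusp6 and with Spry2. Tested alternatives were normexp on median signals (offset 50), with and without extreme backgrounds replaced, quantile and median scaling, other filters, slide and replicate number as blocks, separate fits, trend and robust options, the t-test of the published methods (the threshold with a fold of 2), 1 probe per gene, and each array left out. Slide numbers come from the scan headers. Some results for single genes of the pathway lists are not reported here.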

Additional observations from a re-analysis of the deposited data

Results flagged for a closer look

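In 44 groups of 4 arrays, 3 had 1 array that stood apart, where chance gives about 1 in 20. For Dusp6, siRNA1 4 was low, with a gap to the next array of 0.912 of the group's range, on a range of 102 to 110.2% of control. For Mamld1, siRNA1 2 was high, with a gap of 0.847 of the range. For Map3k1, control 3 was low, with a gap of 0.831.

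Among the tested probes of the Dusp, Spry and Spred1 set, Mamld1 and the pathway genes named by rule, 4 differed between siRNA1 and siRNA2 in the test of the difference itself (limma, adjusted over all tested probes). The log2 difference of siRNA1 minus siRNA2 was -0.83 for the dimmer and -0.45 for the brighter Spred1 probe (A_51_P422996 and A_52_P637689), -0.38 for Dusp6 and -0.52 for Fosb. What set the siRNAs apart was not tested.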

How the results depend on the processing

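Normexp on the local background of each spot gave 0 calls among the 8 probes in each comparison (0 also at an unadjusted p of 0.05 in limma) and 1, 0 and 0 among the pathway probes (12, 9 and 5 unadjusted) for siRNA1, siRNA2 and siRNA1 against siRNA2. It shifted the median of all probes to 0.22 for siRNA1 (from -0.05) and 0.17 for siRNA2 (from -0.01), and the share of calls that were higher to 29.1% (from 43.6%) and 26.0% (from 41.7%). With the 0 to 16 extreme local backgrounds per array replaced, the counts were again 4, 3 and 3 (pathway 38, 16 and 14), and the share higher was 32.8% with siRNA1. Under plain normexp these log2 differences changed sign. With siRNA1 they were 0.51 and 0.24 (Spred1, dimmer and brighter), 0.55 (Dusp4), -0.26 (Dusp6), 0.86 (Spry1), 0.29 (Spry2), 0.65 (Mamld1), 0.59 (Etv4), 0.62 and 0.79 (Etv5) and 0.12 (Spry3). With siRNA2 they were 0.40 and 0.10 (Spred1), 0.36 (Dusp4), 0.66 (Spry1), 0.12 (Spry2), 0.44 (Mamld1), 0.35 (Etv4), and 0.27 and 0.45 (Etv5). Between the siRNAs they were 0.11 and 0.14 (Spred1), 0.19 (Dusp4), 0.20 (Spry1), 0.17 (Spry2), 0.21 (Mamld1) and 0.24 (Etv4). With extreme backgrounds replaced, Spry1 with siRNA2 (0.0034) and Etv5 between the siRNAs (-0.062 and -0.094) changed sign, as did Spry2 between the siRNAs by median scaling (0.028).

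A 2-fold threshold added to the adjusted p, or to the methods' t-test with or without adjustment, left 2, 0 and 0 of the 8 probes and 3, 3 and 1 of the pathway probes. Without a filter on dim probes, 11 pathway probes were called with siRNA2, and with 1 probe per gene 9 between the siRNAs. With slide as a block, 5 of the 8 probes were called with siRNA2, and 24 pathway probes between the siRNAs. Deviations from the group mean correlated at r of -0.18 to 0.53 between same-numbered arrays (median 0.30, over 0.1 in 7 of 10 pairs). For differently numbered arrays the median was -0.10 (over 0.1 in 8 of 30). Arrays of the same slide had a median of 0.30 (over 0.1 in 10 of 13), beside -0.13 across slides (5 of 27). Replicate number and slide partly coincide, and the main fit held neither. With replicate number as a block, 4, 4 and 3 of the 8 probes and 39, 23 and 27 pathway probes were called, with Spry2 at 0.089 between the siRNAs.

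With 1 array left out, 3 to 4, 3 to 4 and 2 to 3 of the 8 probes and 24 to 32, 7 to 17 and 9 to 15 pathway probes were called. Signs changed for Spry2 (-0.16 to 0.051, -0.14 to 0.040 and -0.11 to 0.11), Spry1 with siRNA2 (-0.23 to 0.065) and between the siRNAs (-0.25 to 0.041), and Dusp4 between the siRNAs (-0.25 to 0.073). Quantile normalization moved the share of calls that were higher with siRNA1 to 50.8%, and median scaling to 50.9%. Dusp4 with siRNA1 missed the threshold under both (limma adjusted p = 0.0563 and 0.0602). Median scaling also ended the calls of Map2k3 (-0.27, 0.0742) and Spry3 (-0.45, 0.0573) with siRNA1 and of Fosb with siRNA2 (-0.37, 0.0823), and the methods' t-test after adjustment those of Dusp4, Egr1 and Etv4 with siRNA1 (0.122, 0.0805 and 0.127), of the brighter Spred1 probe (0.0610), Mamld1 (0.0898), Egr1 (0.0509), Fos (0.0556), Ier3 (0.0800), Spry3 (0.0535), Map3k1 (0.0653) and Fosb (0.0863) with siRNA2, and of the dimmer and brighter Spred1 probes between the siRNAs (0.0974 and 0.0792). Over all alternatives with a test, 1225 of the values of single probes kept their direction and side of the threshold, 78 fell short of it, 15 came to pass it and 44 changed sign. These counts include the methods' t-test without adjustment, whose unadjusted p was held against the same threshold. By that p alone, the dimmer Spred1 probe, Dusp4 and Etv4 with siRNA2 and Map2k3 between the siRNAs came to pass it. The causes were not tested.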
